A study of Mus musculus with 9 samples.

Results

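The profiles of Rarg, Tle4 and Smad6, which encode developmental regulators of transcription, were taken from a table of dimethyl sulfate (DMS) reactivities along mouse 5′ untranslated regions. All readings of the RefSeq transcripts NM011244 (Rarg), NM011600 (Tle4) and NM008542 (Smad6) were used. They came to 1271 readings of 32967, in 6 amplicons of 161, for 3 transcripts of 69. Rarg was read in 1 amplicon (216 readings), Tle4 in 2 overlapping amplicons (422 readings) and Smad6 in 3 separate amplicons (633 readings).

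The cells were E14TG2a mouse embryonic stem cells, and 3 independent samples were collected for each of 3 conditions. Untreated cells were exposed to DMS at 1.6%, buffered with 250 mM bicine, and kept at 37 °C for 6 min. ATP-depleted cells received the same DMS treatment after 10 min in glucose-free medium that held 2-deoxyglucose and sodium azide at 10 mM each, and both stayed in the later media. The third group was RNA refolded in vitro, whose folding and DMS conditions were not given in the sources used here. No sample without DMS was analysed here. The assay read RNA structure and not expression, so the level of the 3 transcripts was not measured.

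DMS methylates the base-pairing face of A and C where it is not protected by pairing or binding, and a methylated base is read as a mutation when the RNA is copied into cDNA. A reactive nucleotide is therefore one that was accessible in at least part of the molecules. Structure in a 5′ untranslated region can slow a scanning ribosome or present a binding site, and in cells proteins, ribosomes and helicases act on it. Rarg encodes retinoic acid receptor gamma, a nuclear receptor that pairs with a retinoid X receptor and activates genes with retinoic acid response elements when it binds its ligand. Tle4 encodes a Groucho-family co-repressor, which has no DNA-binding domain of its own and is brought to genes by factors such as TCF/LEF and Hes proteins. Smad6 encodes an inhibitory SMAD, which dampens bone morphogenetic protein (BMP) signalling and is itself induced by that pathway.

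The stretches below are the densest runs of called nucleotides in 4 of the amplicons, and are shown because wide differences between refolded RNA and untreated cells lay in them. Each is a run of 30 nucleotides, read 5′ to 3′ from the table, with T for U. Capitals mark each A or C whose reactivity differed between refolded RNA and untreated cells by the test described with the calls. The stretch of the 2 Tle4 amplicons is the same RNA, capitalised by the calls of each amplicon in turn.
Rarg 393 to 422: cACggAgcctCccaggccAgggcagtgggC
Tle4 595 to 624, upstream amplicon: gCCcgcCgCcctcagtgaCgCCCgCgggga
Tle4 595 to 624, downstream amplicon: gccCgcCgCcctCagtgAcgCcCgcgggga
Smad6 147 to 176, 5′ amplicon: CgCtgcCtCgcCaAACctcgCtgggaCCgC

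Positions are those of the table, which names transcripts and amplicon bounds and gives no genome build, so no genome coordinate or exon is stated. The amplicons were designed at 250 nt. Rarg was covered from 250 to 500, Tle4 from 479 to 729 (upstream) and 578 to 828 (downstream), and Smad6 from 128 to 378 (5′), 532 to 782 (middle) and 851 to 1101 (3′). The share of G and C among the read nucleotides was 66.2% in Rarg, 78.9% and 76.6% in Tle4, and 62.7%, 58.1% and 69.2% in Smad6, against a median of 57.9% over all 161 amplicons. The Tle4 amplicons ranked 2 and 8 from the highest. Each of the 6 read stretches held at least 1 ATG, as did 127 of all 161 (78.9%); whether any of these is a start codon was not examined.

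The values are relative. Within an amplicon and a sample they are counts per 1000000 of a scaled count total of that amplicon (CPM). The deposited scaling factors ran from 0.811 to 1.62 in the libraries of these 6 amplicons. The values thus show how signal was spread along the amplicon and not its overall amount. Depth therefore sets the precision of each profile. Over the series the samples held 5743965 to 12616275 counts, with a median of 40815 per amplicon and sample. The 3 Smad6 amplicons held 20235 to 89911 counts in a sample, apart from in vitro samples 1 and 2 of the 3′ amplicon with 7236 and 8436. Rarg had 11526, 10126 and 6915 counts in ATP-depleted cells, 6891, 3213 and 7443 in untreated cells, whereas the in vitro samples had 621, 458 and 1976. The upstream Tle4 amplicon had 6994 to 17223 counts in cells and 2856, 682 and 1375 in vitro. The downstream one had 3467 to 23147 in cells and 484, 505 and 548 in vitro. Rarg and the Tle4 pair were thus among the 7 shallowest amplicons of the series in refolded RNA.

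At these depths 31.3% of the in vitro A and C readings of Rarg had 0 counts, as did 11.4% and 35.8% in the upstream and downstream Tle4 amplicons and at most 0.952% in a Smad6 amplicon. A single count in vitro was worth 580 to 1622 CPM in Rarg, 1475 to 1701 CPM in the downstream Tle4 amplicon and 12 to 142 CPM in Smad6. Replicates were distinct libraries: in 54 of 54 replicate pairs of these amplicons the counts differed by more than sampling noise. The counts come from amplified cDNA, so counting error understates the full error.

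**Figure D1:**
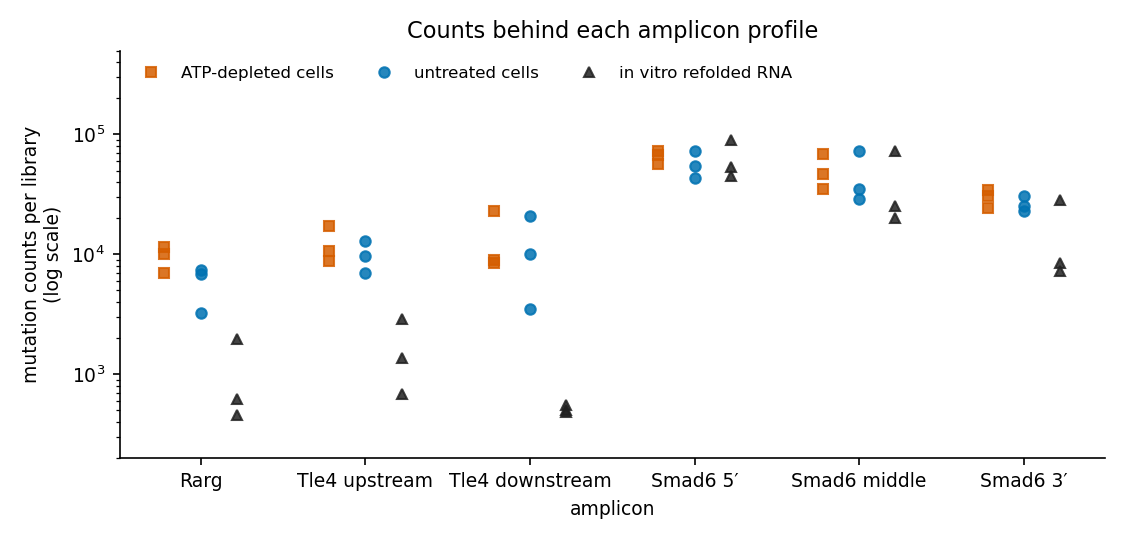
Recovered counts of each of the 6 amplicons in the 9 samples, on a logarithmic axis, coloured by group. The in vitro samples of Rarg and of both Tle4 amplicons lie between 458 and 2856 counts, below every in-cell sample of the same amplicon, whereas those of the 5′ and middle Smad6 amplicons lie between 20235 and 89911.

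The first question was whether the profiles depend on ATP in cells. No difference between ATP-depleted and untreated cells was called in the 3 genes. With limma on log2(CPM + 3197), fitted to all 9 samples and adjusted over the whole table, 0 of 634 tested A and C nucleotides passed 0.05, and 0.00% of all 16178 did. An unadjusted p under 0.05 was reached by 30 of the 634 (4.73%), against 636 of 16178 (3.93%) in the series. The 634 fitted differences ran from -0.90 to 0.91 on that log2 scale.

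The nucleotide with the smallest p in each gene was read as a value. In Smad6 it was C919 of the 3′ amplicon, with 13199, 8946 and 6901 CPM in ATP-depleted cells and 4446, 4562 and 3241 CPM in untreated cells. The 3 depleted samples were the higher ones, and the difference was 0.80 (SE 0.205; limma adjusted p = 1.00). In Tle4 it was C607 of the downstream amplicon, lower after depletion by 0.70 (adjusted p = 1.00 by limma). In Rarg it was C299, at 1320, 1314 and 555 CPM after depletion and 2556, 1992 and 2568 CPM in untreated cells. At C299 the depleted samples were the lower ones, and it did not pass the adjustment.

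Whole profiles were compared as well. Over all A and C of an amplicon, ATP-depleted and untreated samples correlated at a mean Pearson r of 0.737 in Rarg, 0.872 and 0.774 in Tle4, and 0.918, 0.812 and 0.738 in Smad6. Untreated replicates correlated with each other at 0.663, 0.850, 0.723, 0.906, 0.788 and 0.737 in the same order. ATP-depleted replicates correlated at 0.780, 0.905, 0.806, 0.934, 0.829 and 0.782. In each amplicon the value between the groups was thus below that among ATP-depleted replicates and not below that among untreated replicates. These are correlations across nucleotides of 1 amplicon, at least 89 in number, which share library, depth and base composition.

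The second question was which reactivities depend on the cellular setting, from refolded RNA against RNA in untreated cells. Here 106 of the 634 nucleotides were called by limma, 16.7% against 16.3% over the whole series, so the 3 genes together were called at the background share. Of the 106, 32 were higher and 74 lower in vitro, where the series had 8.08% of its nucleotides higher and 8.18% lower. The 3 genes differed in direction. Rarg had 16 calls of 117, none higher and 16 lower, which became 5 higher and 4 lower when each amplicon and sample was divided by its median. Tle4 had 35 calls of 228, 5 higher and 30 lower, or 18 higher and 15 lower after that division. Smad6 had 55 of 289, 27 higher and 28 lower, or 25 and 25.

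The median difference of all tested nucleotides was -0.41 in Rarg, -0.21 in Tle4 and 0.02 in Smad6, against 0.0047 in the series. The falls in Rarg and Tle4 thus went with a lower median over the amplicon and with low depth of their in vitro libraries. As the values are relative, a lower median is no measure of the overall amount of signal. With the deposited scaling factors left out, Rarg had 3 higher and 9 lower calls, Tle4 8 and 28, and Smad6 15 and 35. The calls were repeated with each amplicon's counts thinned to its shallowest library. They then numbered 8 in Rarg (8 lower), 17 in Tle4 (2 higher, 15 lower) and 44 in Smad6 (18 higher, 26 lower). The total also rested on single samples, at 55 without untreated sample 2 and 61 without untreated sample 3.

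Against ATP-depleted cells limma called 100 of the 634, 32 higher and 68 lower in vitro, where 14.9% of the series was called, 8.31% higher and 6.56% lower. Rarg had 1 higher and 17 lower, Tle4 7 higher and 30 lower, and Smad6 24 higher and 21 lower. After division by the median the splits were 5 and 5, 12 and 17, and 27 and 24. This count was 56, 45 and 57 without ATP-depleted samples 1, 2 and 3. Both comparisons use the same in vitro samples, so they do not support each other.

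**Figure D2:**
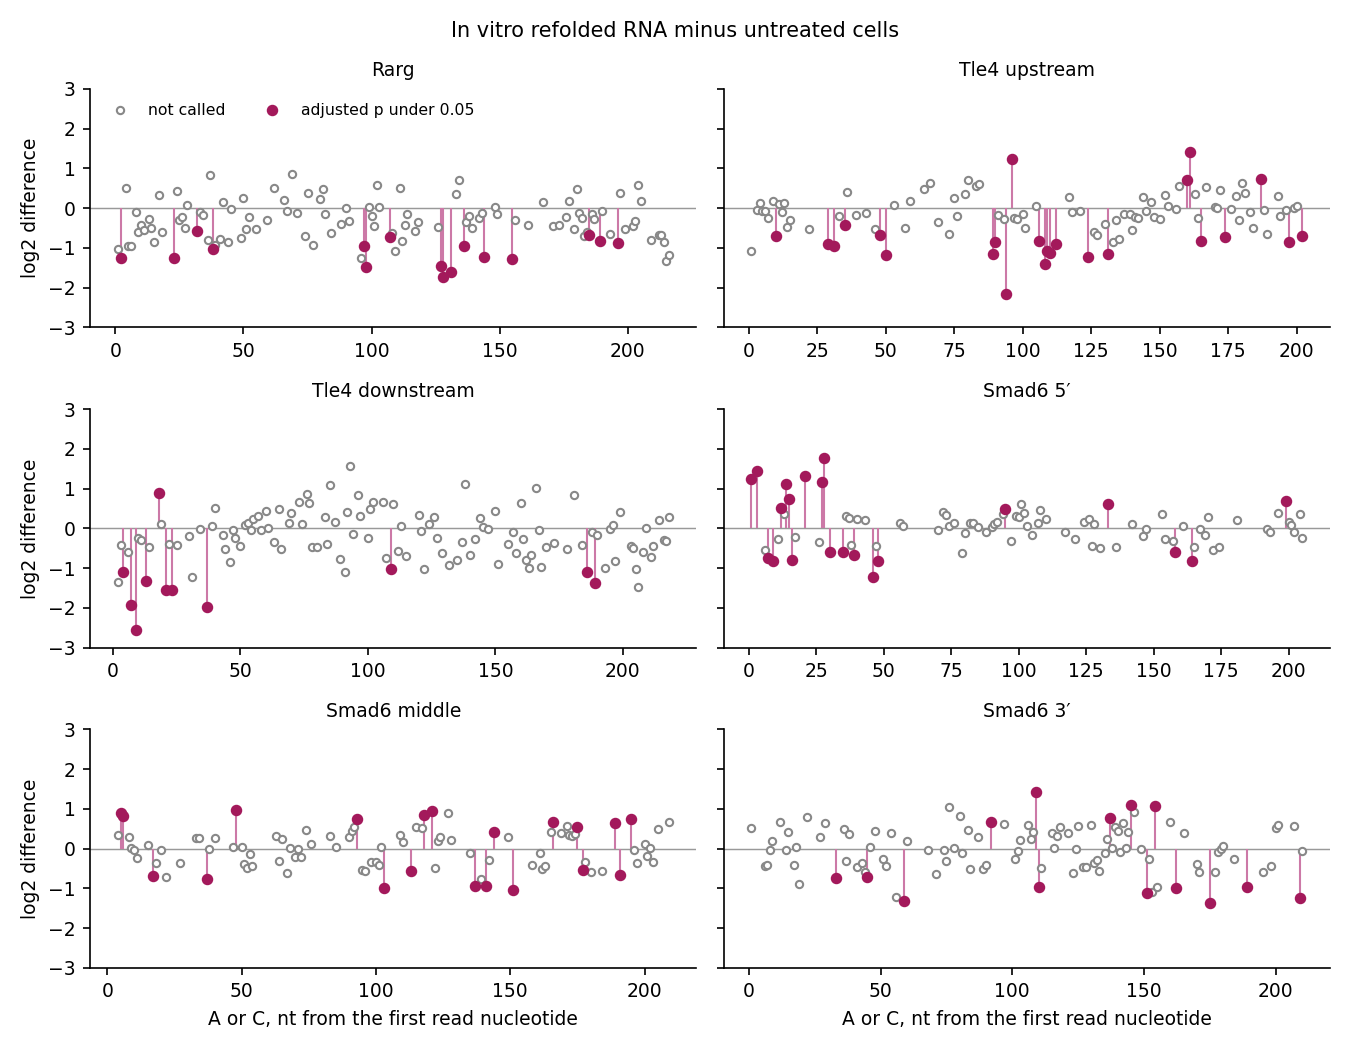
Fitted difference between refolded RNA and untreated cells (log2(CPM + 3197) scale) for each tested A and C, by distance in nt from the first read nucleotide, in 6 panels for the 6 amplicons; called nucleotides are filled and joined to 0 by a line, the others are open. In Rarg the 16 filled points all lie below 0, in Tle4 30 of 35 do, and in Smad6 27 lie above and 28 below.

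The bases took part unequally. In Smad6, 11 of 13 called A were higher in vitro and 26 of 42 called C were lower. In Tle4, 27 of 31 called C were lower, with 1 of 4 called A higher. In Rarg 6 A and 10 C were called, all lower. Over the whole series 681 of 958 called A were higher and 1047 of 1673 called C were lower.

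Signal was spread more unevenly along most of the amplicons in refolded RNA. The measure was the Gini coefficient over the A and C of an amplicon, which is 0 when all react equally and which no scaling of the amplicon changes. It was higher in vitro than in untreated cells in 5 of the 6 amplicons by limma, where 80.1% of all 161 amplicons were called higher. It was higher than in ATP-depleted cells in 6 of 6, where 78.9% were. The in vitro samples lay above all untreated samples in 5 of 6, as in 75.2% of the series, and above all ATP-depleted samples in 5 of 6, as in 78.9%. The members' median difference was 0.123 against untreated cells and 0.125 against ATP-depleted cells, beside 0.0923 and 0.0867 over all amplicons.

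Rarg had the widest rise of the 6. Its Gini coefficient was 0.613, 0.642 and 0.529 in vitro, 0.441, 0.426 and 0.369 in untreated cells, and 0.417, 0.355 and 0.402 in ATP-depleted cells. Every in vitro sample lay above every in-cell sample. The difference was 0.183 from untreated cells (SE 0.0325; limma adjusted p = 0.0012), rank 7 of 161, and 0.203 from ATP-depleted cells (limma adjusted p = 0.0008), rank 2 of 161. The ranks are those at full depth, where Rarg had rank 6 from the lowest in vitro counts of the series. With counts thinned to 458 per library the difference was 0.159 from untreated cells, still called. The 5 strongest nucleotides of Rarg, picked anew in each sample, held 15.3% of its signal in untreated cells and 23.0% in vitro. In vitro the share was 28.7%, 21.2% and 19.2% in the libraries of 458, 621 and 1976 counts.

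In Smad6 the 5′ amplicon read 0.511, 0.502 and 0.486 in vitro against 0.393, 0.359 and 0.376 in untreated cells, a difference of 0.124 (SE 0.0114). The middle amplicon read 0.466, 0.489 and 0.453 against 0.342, 0.344 and 0.353, a difference of 0.123. In both, the groups were well apart at depths of 20235 counts or more. The 3′ amplicon differed by 0.0923 (SE 0.0317; limma adjusted p = 0.0279), and its in vitro sample 3, the deepest, read 0.408 against 0.407 in the highest untreated sample. That call was lost without in vitro sample 1, in vitro sample 2 or untreated sample 2, at adjusted p of 0.0812, 0.0907 and 0.0937 by limma. Its difference from ATP-depleted cells, 0.0796 (limma adjusted p = 0.0468), was lost without any one of ATP-depleted samples 1 to 3, in vitro samples 1 and 2, and untreated samples 1 and 3. It was also lost with the replicate block (0.0720), with only the 6 samples compared (0.0691), with thinned counts (0.0544) and with A alone (0.284), each an adjusted p by limma.

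In the upstream Tle4 amplicon the coefficient was 0.507, 0.504 and 0.507 in vitro and 0.409, 0.343 and 0.373 in untreated cells, a difference of 0.131 (SE 0.0174; limma adjusted p = 0.0003). With A alone this difference was 0.0103 (limma adjusted p = 0.772), and that from ATP-depleted cells was 0.0240 (limma adjusted p = 0.498), neither called. In the downstream amplicon the coefficient was 0.592, 0.658 and 0.573 in vitro and 0.602, 0.4996 and 0.4994 in untreated cells. Untreated sample 1, with 3467 counts, overlapped the in vitro range, and the difference of 0.074 was not called (limma adjusted p = 0.0689; 95% interval -0.0035 to 0.152). It was called without untreated sample 1 and with thinned counts (limma adjusted p = 0.0319). The difference of 0.101 from ATP-depleted cells was called (limma adjusted p = 0.0237). That call was lost without ATP-depleted sample 2 or 3 or in vitro sample 2, and with T and G included (limma adjusted p = 0.174). The 5 strongest Tle4 nucleotides of each sample held 16.5% of the upstream signal in untreated cells and 18.6% in vitro. Downstream the 5 strongest of each sample held 27.1% and 25.2%. These were not the same nucleotides in the 2 groups. By group mean, C601 and A631 led in untreated cells, with 11.8% and 8.54% of the downstream signal. In vitro C601 led with 3.73%, and A631 was not among the 5. Between ATP-depleted and untreated cells the Gini coefficients of the 6 amplicons differed by -0.0264 to 0.0134, and 0 were called (0.00% of the series; limma adjusted p = 0.984).

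**Figure D3:**
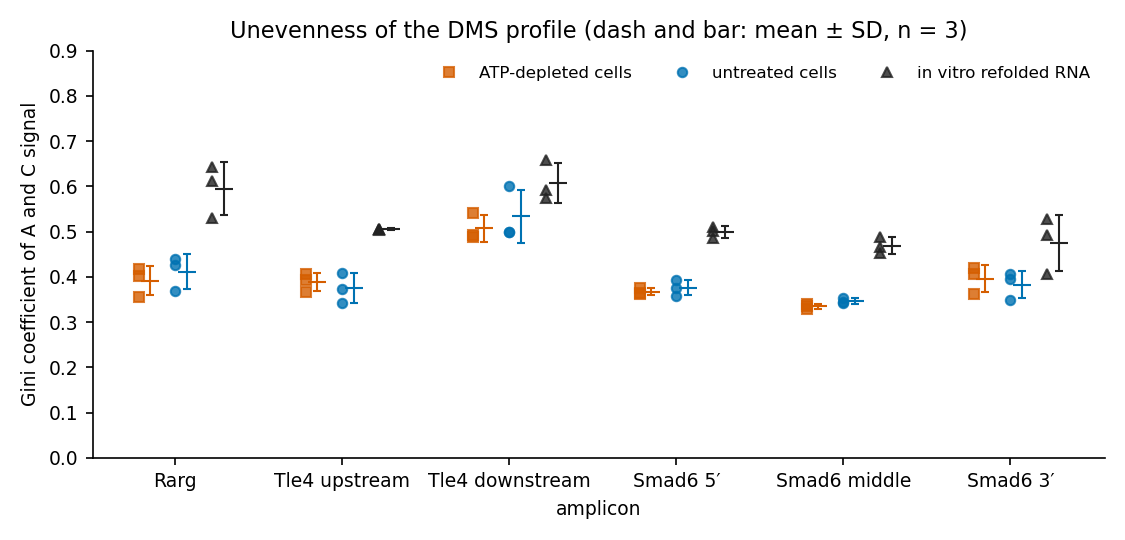
Gini coefficient of A and C signal (vertical axis, no unit) in each of the 9 samples for the 6 amplicons, with points for samples, coloured by group, and a dash with a bar for the group mean ± SD. In Rarg, the upstream Tle4 amplicon and the 5′ and middle Smad6 amplicons the 3 in vitro samples lie above all in-cell samples, in the downstream Tle4 amplicon they overlap the untreated samples, and in the 3′ Smad6 amplicon they overlap the ATP-depleted samples.

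The mean log2 reactivity of an amplicon fell in vitro in Rarg and in both Tle4 amplicons, by 0.39 (SE 0.0945), 0.20 (SE 0.0394) and 0.25 (SE 0.053) against untreated cells, with limma adjusted p of 0.033, 0.0126 and 0.0174. They ranked 161, 156 and 158 of 161, and 8.70% of the series was called, 6.83% lower. Against ATP-depleted cells the falls were 0.40, 0.21 and 0.24, where 13.0% was called, 5.59% lower. None of the 3 Smad6 amplicons was called. All these falls turned into rises when each amplicon and sample was divided by its median, and 0 of the 3 was called without untreated sample 1 or without untreated sample 3, and 1 against ATP-depleted cells without ATP-depleted sample 1. The deposited values carry scaling factors for each library, and those of the in vitro libraries were 0.872 to 1.62 in Rarg and 1.21 to 1.28 in the downstream Tle4 amplicon. With these factors left out, the downstream Tle4 mean turned to a rise of 0.00546 against untreated cells and to a difference of -0.0172 against ATP-depleted cells, neither called (adjusted p = 0.939 and 0.837 by limma).

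Windows of 25 nt placed the differences. Of 53 windows with at least 5 tested nucleotides 15 were called between refolded RNA and untreated cells, where 19.4% of the series was called, 9.72% higher and 9.64% lower, and all but 1 were lower in vitro. They were 5 of 10 in Rarg, 7 of 18 in Tle4, and 1 higher and 2 lower of 25 in Smad6. The widest fall in Rarg, 0.92 (SE 0.207; limma adjusted p = 0.016), covered its last read nucleotides, 475 to 483, and the next, 0.73 (SE 0.148), covered 375 to 399. In Tle4 the window 600 to 624 fell in both amplicons, by 0.53 upstream and 0.75 downstream (SE 0.0866; limma adjusted p = 0.0008). In Smad6 the window 150 to 174 rose by 0.23 (SE 0.0392; limma adjusted p = 0.0045) and its neighbour 175 to 199 fell by 0.34 (SE 0.0569; adjusted p = 0.0044 by limma). Against ATP-depleted cells 15 windows were again called, where 21.1% of the series was (13.6% higher, 7.49% lower), 5 lower in Rarg, 6 lower in Tle4, and 2 higher and 2 lower in Smad6.

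In Rarg the stretch 393 to 422 held 6 called nucleotides of 16 tested A and C, all lower in vitro. Its share of the amplicon's signal was 12.3%, 9.88% and 11.6% in untreated cells, against 7.27%, 5.48% and 7.34% in vitro. C395 read 17232, 17924 and 18416 CPM in untreated cells, 16775, 17614 and 14039 CPM in ATP-depleted cells, and 495, 2433 and 8993 CPM in vitro. The in-cell samples were close together, whereas the in vitro samples spread widely below them. The difference was -1.73 (SE 0.364; limma adjusted p = 0.0164).

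A398, also in the stretch, read 21849, 12854 and 9905 CPM in untreated cells and 2476, 811 and 4932 CPM in vitro, a difference of -1.61 (SE 0.293; limma adjusted p = 0.0095). A365 read 10801, 13216 and 10639 CPM in untreated cells and 495, 811 and 6672 CPM in vitro, a difference of -1.48 (SE 0.361). The in vitro readings of 495 and 811 CPM are those of libraries with 0 counts at the nucleotide, which the 0.5 count added before the log puts above 0, and the values above them rest on 1 to 15 counts. At each of these nucleotides in vitro sample 3, the deepest, was the highest of its group, and the groups did not overlap. C422, the last of the stretch, had the widest fall against ATP-depleted cells, -1.69 (limma adjusted p = 0.0064), with 16872, 16773 and 12294 CPM there and 2476, 811 and 4932 CPM in vitro. Against untreated cells the call at A398 held under all 23 alternatives, whereas A365 was lost in 10, C422 in 5 and C395 in 4 of the 23.

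Rarg had 1 rise, at A329 against ATP-depleted cells. It read 9341, 8571 and 7535 CPM there, 12780, 7061 and 15041 CPM in untreated cells, and 13369, 20273 and 19437 CPM in vitro. The in vitro samples lay above all depleted samples and overlapped the untreated range. The difference from depleted cells was 0.82 (SE 0.226; limma adjusted p = 0.044), lost in 12 of 23 alternatives, and that from untreated cells, 0.52, was not called. C299 had 0 counts in all 3 in vitro libraries. With a floor of 3 counts for the group as a whole, it was at least 2.04-fold lower than in untreated cells. Such a bound covers counting error alone. The strongest nucleotide in cells was A482, with a mean of 37046 CPM in untreated cells, at the 3′ end of the read stretch.

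In Tle4 the overlap of the amplicons gave each nucleotide from 595 to 711 a second reading from the same RNA samples. The overlap held 68 A and C. Their levels correlated between the amplicons at 0.598, 0.685 and 0.732 in ATP-depleted cells, 0.646, 0.700 and 0.703 in untreated cells, but only 0.247, 0.223 and 0.400 in vitro. The readings of the same RNA were thus less alike in vitro, where the downstream libraries held 484 to 548 counts; the part of depth in this was not tested.

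The changes from untreated cells to refolded RNA correlated at 0.341 between the amplicons and had the same sign at 43 of 68 nucleotides (63.2%). Of the 68, 18 were called upstream and 9 downstream. Both amplicons called 5, or 27.8% of the upstream and 55.6% of the downstream calls, of which 4 had the same direction and 1 the opposite. Of the 17 called in 1 amplicon alone, 13 had the same sign in the other. Over the whole amplicons 20 of 24 calls upstream and 10 of 11 downstream were lower. Like signs alone thus do not show agreement at single nucleotides. Against ATP-depleted cells the correlation was 0.385 with 49 of 68 signs alike (72.1%). There both amplicons called 6, with 5 in the same direction and 1 opposite. Of the 14 called in 1 alone, 9 had the same sign in the other. For ATP-depleted against untreated cells, where 0 nucleotides were called in either amplicon, the correlation was 0.141. There 43 of 68 signs were alike (63.2%), the same tally as for refolded RNA against untreated cells. All of these rest on 68 nucleotides that share their samples.

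C601 fell in both readings and had the strongest downstream signal of all in cells. Downstream it read 121458, 114136 and 106773 CPM in untreated cells, 103239, 110347 and 96675 CPM in ATP-depleted cells, and 26362, 37816 and 21382 CPM in vitro. Upstream it read 17287, 21415 and 19842 CPM in untreated cells, 26202, 25268 and 25112 CPM in ATP-depleted cells, and 907, 1866 and 2966 CPM in vitro, which rest on 2, 1 and 4 counts. The differences were -1.92 downstream (SE 0.177; limma adjusted p = 0.0007) and -2.17 upstream (SE 0.152; limma adjusted p = 0.0003). Both readings put every in vitro sample below every in-cell sample. The ATP-depleted samples lay above the untreated ones upstream and overlapped them downstream. In cells the level of C601 relative to the rest of the amplicon was several times higher downstream than upstream. C601 was nucleotide 7 of the downstream and nucleotide 94 of the upstream read stretch.

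C603 moved in opposite directions. Downstream it read 21880, 18882 and 19895 CPM in untreated cells, 31110, 22462 and 18669 CPM in ATP-depleted cells, and had 0 counts in all 3 in vitro libraries. With a floor of 3 counts for the group as a whole, it was at least 9.06-fold lower than in untreated cells. The bound against ATP-depleted cells was 11.1-fold. Both bounds cover counting error alone, and the in vitro replicates of this amplicon differed by more than that. Upstream it read 9126, 14771 and 14097 CPM in untreated cells and 37556, 31724 and 31966 CPM in vitro, a rise of 1.24 (SE 0.168; limma adjusted p = 0.0033). The groups did not overlap in either reading. C603 was nucleotide 9 of the downstream and nucleotide 96 of the upstream read stretch; which reading reflects the RNA was not tested. Against untreated cells the calls at C601 and C603 held under all 22 or 23 alternatives in which they were tested.

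Other nucleotides of the overlap were read alike in direction or in 1 amplicon alone. A631, the strongest upstream nucleotide in cells, fell in both. Upstream it went from 60318, 53438 and 57930 CPM in untreated cells to 32476, 11819 and 29330 CPM in vitro, a difference of -1.22 (SE 0.289; limma adjusted p = 0.0253). Downstream it went from 100784, 62865 and 83400 CPM to 17858, 11576 and 28754 CPM, a difference of -1.97 (SE 0.278; limma adjusted p = 0.0037). No in vitro sample reached an untreated one in either reading. C668 rose upstream, from 6751, 5404 and 6330 CPM to 23405, 36700 and 11534 CPM (1.42, SE 0.305; limma adjusted p = 0.0177), with 0.12 downstream, not called. A612 rose downstream by 0.89 (SE 0.167; limma adjusted p = 0.0106), with 0.07 upstream. C607 fell downstream by 1.33 (SE 0.161; limma adjusted p = 0.0022), with -0.14 upstream. The upstream calls at A631 and C668 were lost in 6 and 3 of 23 alternatives. With counts thinned to equal depth the downstream calls at A612 and C607 were lost (adjusted p = 0.319 and 0.122 by limma), and A612 was also lost with precision weights (adjusted p = 0.121 by limma).

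**Figure D4:**
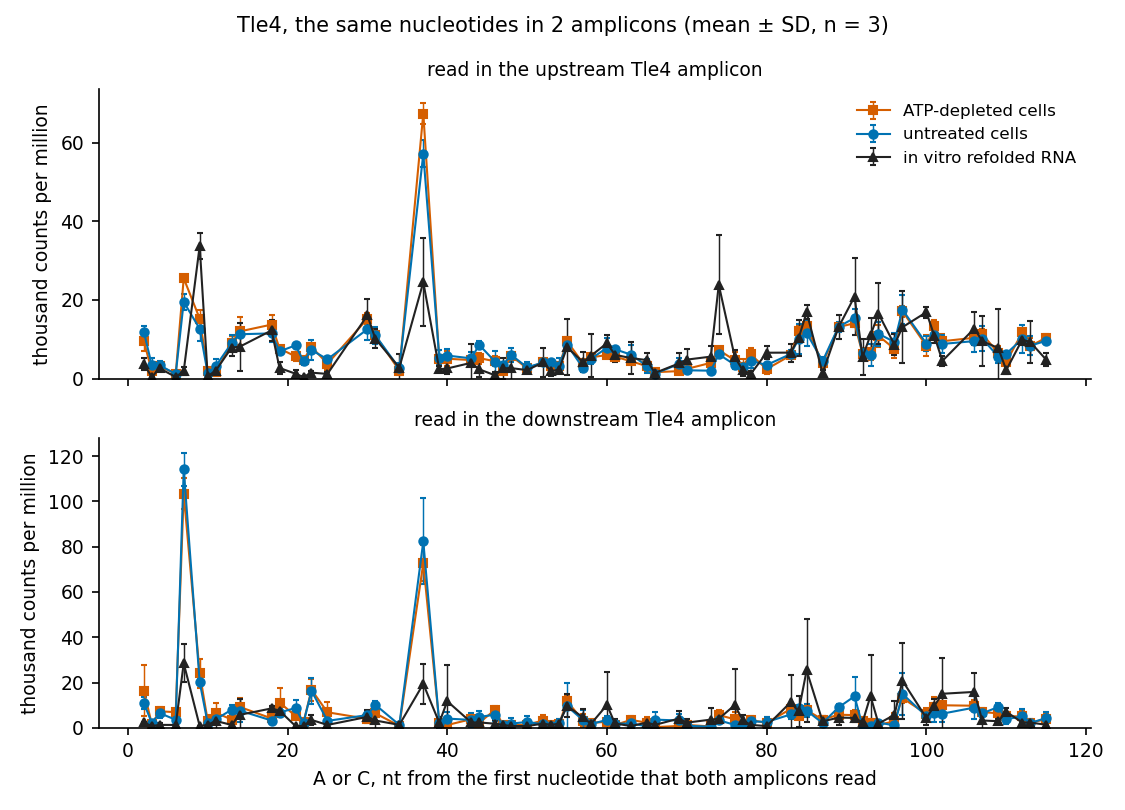
Reactivity of the 68 A and C of the Tle4 overlap as read in the upstream (top) and downstream (bottom) amplicon, as CPM divided by 1000, by distance in nt from the first nucleotide that both read, with points for group means, bars for the SD (n = 3) and lines joining neighbouring A or C. At nucleotide 7, C601, the in-cell groups stand above the in vitro group in both panels, and at nucleotide 9, C603, the in vitro group is the highest in the top panel and the lowest in the bottom one.

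The stretch 595 to 624 of Tle4 had 9 calls of 17 tested A and C upstream, 1 higher and 8 lower, and 7 of 17 downstream, 1 higher and 6 lower. It held 20.6% of the downstream signal in untreated cells and 9.92% in vitro, at 18.4%, 21.7% and 21.7% against 9.44%, 10.4% and 9.89%. Upstream it held 14.9% and 13.2%. The run of C at 615 to 617 was called lower at each of its 3 nucleotides upstream, with differences of -1.42 at C615 and -1.12 at C617. C616 had 0 counts in all 3 in vitro libraries there and was at least 6.93-fold lower than in untreated cells. Downstream C617 differed by -1.55, and C615, with 0 counts in vitro, was at least 3.93-fold lower. These in vitro readings rest on 0 to 4 counts in a library, and the bounds cover counting error alone.

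Smad6 gave the deepest profiles, and its 5′ amplicon showed rises and falls side by side. The stretch 147 to 176, at the start of what was read, had 12 calls of 17 tested A and C, 8 higher and 4 lower. It held 11.5%, 11.5% and 12.7% of the signal in untreated cells, 12.1%, 12% and 12.8% in ATP-depleted cells, and 20.1%, 22.9% and 19.3% in vitro. The in-cell groups overlapped, and each in vitro sample was well above them. As in Rarg and Tle4, the stretch was chosen by these calls, so its share describes them and adds no support. The run chosen by the same rule held 14.2% in untreated cells and 14.4% in vitro in the middle amplicon. In the 3′ amplicon such a run held 14.05% and 14.8%.

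In vitro C174 read 39880, 41314 and 35232 CPM, compared with 10196, 10304 and 7091 CPM in untreated cells, and 9996, 11475 and 10278 CPM in ATP-depleted cells. Its difference from untreated cells was 1.77 (SE 0.131; limma adjusted p = 0.0003), the widest rise in the 3 genes. C149 read 15721, 28375 and 19648 CPM in vitro against 6662, 5029 and 5298 CPM in untreated cells, a difference of 1.44 (SE 0.182; limma adjusted p = 0.0025). Around them C147, A160, A161, C167 and C173 also rose, to means of 21486, 23409, 20998, 19956 and 25428 CPM. Between these, C153, C155 and C162 fell, to 197, 1436 and 2429 CPM from 2533, 4995 and 6381 CPM in untreated cells. High and low nucleotides thus alternated within the 30 nt in vitro, while in untreated cells the same nucleotides ranged from 2533 to 11543 CPM.

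**Figure D5:**
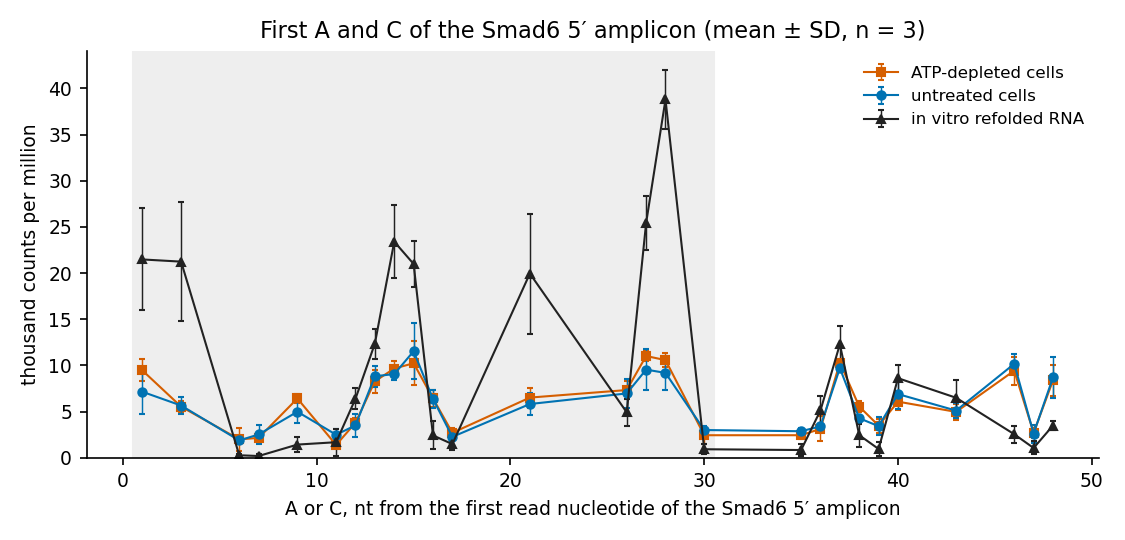
Reactivity of A and C at the start of the 5′ amplicon of Smad6, as CPM divided by 1000, by distance in nt from the first read nucleotide, with points for group means, bars for the SD (n = 3), lines joining neighbouring A or C, and the printed stretch shaded. At nucleotide 28, C174, the in vitro mean stands at 38809 CPM against 9197 CPM in untreated cells, and the in-cell groups run close together throughout the shaded part.

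The strongest in-cell nucleotide of this amplicon, A327, was high in every group, at means of 44224 CPM in untreated cells, 45580 CPM in ATP-depleted cells and 51347 CPM in vitro. The 5 strongest nucleotides of each sample held 17.4% of the signal in untreated cells and 23.1% in vitro. In vitro replicates of the 5′ amplicon correlated at a mean of 0.910 over 89 A and C, untreated replicates at 0.906, and untreated with in vitro samples at 0.748. Thinned to 43496 counts per library these were 0.912, 0.903 and 0.747. The middle amplicon gave 0.848, 0.788 and 0.733.

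The 3′ amplicon of Smad6 gave 0.557, 0.737 and 0.505, and the upstream Tle4 amplicon 0.710, 0.850 and 0.604, so the order did not follow depth throughout. In Rarg in vitro replicates correlated at 0.422, untreated replicates at 0.663, and the groups with each other at 0.484. After thinning to 458 counts the values were 0.427, 0.405 and 0.375, so at equal depth the untreated replicates were no more alike than the in vitro ones. In the downstream Tle4 amplicon the thinned values were 0.331, 0.477 and 0.329 at 484 counts. In the upstream one they were 0.651, 0.570 and 0.472 at 682 counts.

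The 3′ amplicon of Smad6 held the gene's widest falls. C1046 read 9462, 9106 and 8810 CPM in untreated cells and 498, 2150 and 2382 CPM in vitro, a difference of -1.36 (SE 0.214; limma adjusted p = 0.0054). C1022 read 10146, 8815 and 10178 CPM in untreated cells, 14618, 11342 and 10016 CPM in ATP-depleted cells, and 2488, 2289 and 3599 CPM in vitro, a difference of -1.11 from untreated cells (SE 0.14; limma adjusted p = 0.0025). At both the in vitro samples lay well below every in-cell sample. C930 (-1.33), A1080 (-1.23) and C980 (1.41, a rise) were called as well, at limma adjusted p of 0.0438, 0.0313 and 0.0455, and these were lost in 13 of 23, 9 of 23 and 15 of 24 alternatives. At C980 the untreated samples read 3078, 4962 and 13923 CPM, a wide spread below 16562, 34616 and 18975 CPM in vitro.

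The middle amplicon had 20 calls of 95, 11 higher and 9 lower. Its strongest nucleotide was C698 in untreated cells, at a mean of 15551 CPM, and A602 in vitro, at 26079 CPM. The 5 strongest of each sample held 12% of its signal in untreated cells and 15.6% in vitro, the flattest profile of the 6 amplicons in each group.

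The profiles were set against a computed fold of each read stretch, with RNAfold's pairing probabilities. The area under the curve (AUC) for telling computed unpaired from paired A and C by their reactivity is 0.5 where reactivity does not separate them and 1 where it separates them fully. In Rarg it was 0.757, 0.740 and 0.789 in untreated cells, 0.686, 0.781 and 0.758 in ATP-depleted cells, and 0.618, 0.669 and 0.779 in vitro. In Tle4 it was 0.746, 0.775 and 0.794, then 0.758, 0.787 and 0.803, and 0.663, 0.604 and 0.700 in vitro. In Smad6 it was 0.747, 0.760 and 0.747, then 0.726, 0.770 and 0.755, and 0.678, 0.695 and 0.736 in vitro.

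In Tle4 and Smad6 every in vitro sample lay below every untreated sample, and in Rarg in vitro sample 3 lay within the untreated range. That sample had 1976 counts in Rarg, against 621 and 458 in in vitro samples 1 and 2. The in vitro Tle4 libraries held 484 to 2856 counts. The in vitro AUCs of these 2 genes thus rest on shallow profiles. By an exact two-sided permutation test, in which 3 against 3 samples cannot give p below 0.10, p was 0.1 in Tle4, 0.1 in Smad6 and 0.3 in Rarg. Adjusted over the 9 comparisons these were 0.3, 0.3 and 0.54. The direction rested on the base in Rarg, where A alone gave a difference of 0.0603 and C alone -0.159, and A alone gave -0.0176 in Smad6. In untreated cells the median of computed unpaired A and C was 9134 CPM in Rarg, 8962 CPM in Tle4 and 8940 CPM in Smad6, against 4474, 4127 and 4534 CPM for paired ones. In vitro the Smad6 medians were 9997 and 4418 CPM. By base, the untreated medians of A and C were 10076 and 4358 CPM in Rarg, 10416 and 4483 CPM in Tle4, and 9412 and 4543 CPM in Smad6. How far the separation follows the base rather than the computed pairing was not tested. The fold is a computation on the amplicon alone, so pairing with the rest of the transcript is not in it.

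Genes of the same pathways were rare in the table. None of 10 listed genes of retinoic acid signalling and none of 12 of Groucho and Wnt signalling was measured besides the members. Of 17 listed genes of TGF-beta and BMP signalling only Acvr2a, a type II activin receptor, was measured. It had 20 of 79 nucleotides called between refolded RNA and untreated cells (25.3%, against 16.3% of the series), 10 higher, and its Gini coefficient rose by 0.0739. The 7 other nuclear regulators of the list (Chd2, Kdm2a, Jmjd1c, Eed, Brd2, Nfe2l1 and Ddx17) had 476 of 2446 nucleotides called (19.5%), 225 of them higher. Of their 26 amplicons 19 had a higher and 2 a lower Gini coefficient in vitro, where 80.1% of the series was higher. Between ATP-depleted and untreated cells limma called 0 nucleotides in either list.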

How the data were processed

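DMS mutational profiling was read in 9 samples, grouped by their titles. The submitters' processing notes name bcl2fastq, Bowtie2 and limma; the mutation counter and the genome build were not given in the sources used here. The values deposited by the authors are log2 values, 1 per nucleotide and sample. From the values, each is the log2 of a whole number plus 0.5 over a scaled library size, per 1000000; whole numbers were recovered for all libraries at a tolerance of 0.0001 and taken as mutation counts. Coverage is unknown, so no mutation rate was computed.

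The deposited log2 values were turned back to CPM. Of 16187 A and C, 16178 had counts in some sample and were tested on log2(CPM + 3197); the pseudocount is 0.5 of the median over all A and C and samples, and it understates the change of weak nucleotides. limma 3.58.1 (R 4.3.3) was fitted to all 9 samples with a mean per group, two-sided, with Benjamini-Hochberg adjustment over the whole table and a threshold of 0.05. Gini coefficients and means needed 10 tested nucleotides in an amplicon, and 25-nt windows needed 5. RNAfold was from ViennaRNA 2.7.2; other steps used Python 3.11.15, numpy 2.4.6 and scipy 1.17.1. Checked on simulated data with 200 changed nucleotides among 16178, the fit for in vitro minus untreated recovered 71.1% of 2-fold and 100% of 4-fold changes. The changed nucleotides were drawn over all amplicons from those with a mean above that median, with a common spread between replicates. Recovery for weak nucleotides and for the shallow Rarg and Tle4 libraries was not examined. The median SE of a difference was 0.336 in Rarg and 0.288 in Tle4, against 0.168 in the series.

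The named nucleotides are, in each gene, up to 3 rises and 3 falls against untreated cells and 1 each against ATP-depleted cells, the widest among calls whose samples did not overlap; for ATP-depleted against untreated cells, the smallest p; and C601 and C603 of Tle4. Other nucleotides were named after their values were seen. Each stretch shown is the 30 nt with the most calls, in Tle4 over both amplicons together. Alternatives covered pseudocount, scaling, filters, bases, amplicon ends, eBayes options, precision weights, thinning, window size, fold settings, the samples fitted, a replicate block and omission of each sample. A minimum of 5000 counts in each library of an amplicon and omission of the scaling factors were alternatives chosen after seeing the data. The members, lists and stretches were chosen with earlier results of these data known. Same-numbered samples did not deviate together (correlations of -0.0177 to 0.100), so the numbers were not taken as pairs.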

Additional observations from a re-analysis of the deposited data

Results flagged for a closer look

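G and U (T in the table) entered no comparison above, and readings above the counting floor were found on them in all 3 genes. In untreated cells the median reading of G was 697 CPM in Rarg, 786 CPM in Tle4 and 708 CPM in Smad6. The median of U was 2645 CPM in Rarg, 4913 CPM in Tle4 and 3562 CPM in Smad6. Without a DMS-free sample there was no control level, so the readings were set against the 3 counts that a count of 0 allows. More than 3 counts in all untreated samples were found at 177 of 211 G and 128 of 132 U of Smad6, 61 of 161 G and 28 of 33 U of Tle4, and 7 of 68 G and 19 of 31 U of Rarg. With all bases tested, limma called 10 of the 132 U of Smad6 between refolded RNA and untreated cells, 7 of them higher in vitro, where 7.97% of all U of the series were called. It also called 6 G of Tle4, 1 of them higher, where 1.71% of all G were called, and 1 U each of Tle4 and Rarg. The groups of 3 samples were too small to be searched for single outlying samples.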

How the results depend on the processing

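Between ATP-depleted and untreated cells 0 nucleotides, amplicons and windows of the 3 genes were called under every alternative run. The 106 nucleotides called between refolded RNA and untreated cells became 21 with A alone, 67 in amplicons with at least 5000 counts, 46 at or above the median, 57 with only the 6 samples compared and 69 thinned; the 100 against ATP-depleted cells became 26, 63, 53 and 63 with A alone, at least 5000 counts, at or above the median and thinned. Fewer nucleotides or samples enter all of these but thinning, which lowers depth. The minimum of 5000 counts left 0 nucleotides of Rarg and Tle4, so it covers Smad6 alone. There 67 and 63 of 289 were called, against 55 and 45 in the main fit. Gini calls against untreated cells became 3 with A alone. With at least 5000 counts 3 of the 3 amplicons tested were called in both comparisons.

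Against untreated cells, calls of the mean were 1 with T and G, 1 with A alone, 1 with the full-median pseudocount and 1 thinned. They were 0 when divided by the median. Against ATP-depleted cells they were 1 with T and G and 0 when divided by the median. With at least 5000 counts 0 were called in either comparison. Only the Smad6 amplicons were left there, and none of them was called in the main fit. Division by the median turned the means to 0.163 and 0.188 (Rarg), 0.0841 and 0.0548 (Tle4 upstream) and 0.221 and 0.293 (downstream), against untreated and ATP-depleted cells in turn, and without the scaling factors the downstream mean against untreated cells was 0.00546. Window calls became 2, 5, 6 and 26 (A alone, 5000 counts, median filter, 15-nt windows) and 3, 5 and 8 (A alone, 5000 counts, 40-nt windows). The AUC difference was 0.0603 and 0.0679 in Rarg and -0.0176 in Smad6 (A alone), and -0.159 and -0.138 in Rarg and -0.182 and -0.189 in Tle4 (C alone). The cause was not tested.

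Uncalled readings of Tle4 and Rarg changed sign: C607 upstream to 0.20 and 0.18 (median) and 0.23 (thinned), A612 upstream to 0.22 (median), C668 downstream to -0.0885 (thinned) and 0.32 (median), Rarg C299 to 0.0694 (median). Without each sample in turn C607 ran from -0.286 to 0.0120 and from -0.279 to 0.0118, A612 from -0.0246 to 0.211 and from -0.258 to 0.00754, and C668, against untreated cells, from -0.0681 to 0.300.

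Without each sample in turn the counts against untreated and ATP-depleted cells ranged from 55 to 109 and 45 to 105 (nucleotides), 4 to 6 and 4 to 6 (Gini), 0 to 3 and 1 to 3 (means), and 11 to 18 and 10 to 19 (windows). The AUC differences against untreated cells ranged from -0.118 to -0.0377 (Rarg), -0.138 to -0.0901 (Tle4) and -0.0650 to -0.0358 (Smad6), against ATP-depleted cells from -0.0982 to -0.0174, -0.149 to -0.101 and -0.0638 to -0.0346, and between the in-cell groups from -0.0398 to 0.00735, -0.00138 to 0.0237 and -0.0108 to 0.0107. With a replicate block the counts were 91 and 78 nucleotides, 5 and 5 Gini coefficients, 3 and 3 means, and 17 and 17 windows. Depth limits Rarg and Tle4 most: 9 of the 18 in vitro libraries of the 6 amplicons held fewer than 5000 counts.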
